A study of Mus musculus with 8 samples.

Results

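The haemoglobin genes of the mouse were examined in RNA from ventricular heart of embryos at embryonic day 11.5. They were the 7 genes with the symbols Hba-x, Hba-a1, Hba-a2, Hbb-y, Hbb-bh1, Hbb-bs and Hbb-bt, taken by symbol from a table of 52778 features, and all 7 passed the filter on low values. A further 2 rows with the symbols Hbb-bh1 and Hbb-y lie on an alternative sequence of chromosome 7, were at 0 in every library and were not used. The study compared 4 control libraries with 4 libraries from embryos homozygous for Atf4(del7), a CRISPR/Cas9 allele lacking 7 bases of exon 3, which shifts the reading frame and brings in an early stop codon while the polyadenylation signal is kept. ATF4 is a transcription factor of the amino acid and integrated stress response. The labels call the mutants a global knockout, so the deletion is not limited to heart muscle and the blood in the heart carries it too. They give the strain as C57BL/6 for both groups, enter the mutants as WT in the genotype field, report no drug or other treatment, and do not say whether embryos shared a litter or were pooled.

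Haemoglobin is built from alpha-like and beta-like chains, and a haem group sits in each chain. In the mouse embryo the first, primitive red cells come from the yolk sac and use the embryonic chains Hba-x (zeta), Hbb-bh1 and Hbb-y (epsilon-y) beside the adult-type alpha chains Hba-a1 and Hba-a2. Definitive red cells, made later in the fetal liver, use Hba-a1 and Hba-a2 with the adult beta chains Hbb-bs and Hbb-bt, and within primitive cells Hbb-bh1 is used early and Hbb-y later, as Hba-x gives way to Hba-a1 and Hba-a2. Heart muscle makes no haemoglobin of its own in textbook accounts, so these transcripts mark the blood in the dissected tissue. In bulk RNA, fewer blood cells and less haemoglobin RNA per blood cell cannot be told apart.

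The genes form 2 clusters on GRCm38. On the plus strand of chromosome 11 lie Hba-x at chr11:32276600-32278116, Hba-a1 at chr11:32283672-32284486 and Hba-a2 at chr11:32296492-32297310. On the minus strand of chromosome 7 lie Hbb-bt at chr7:103812524-103813923, Hbb-bs at chr7:103826523-103827928, Hbb-bh1 at chr7:103841638-103843162 and Hbb-y at chr7:103851754-103853207. RefSeq promoter entries on GRCm38.p6 matched 6 of the 7 genes. No entry was matched for Hbb-bh1. The 200 bases before the start of transcription are shown for 5 of them, because they set the embryonic genes beside the definitive genes of the same cluster. Capitals mark the TATA box as TATAA and its variant as CATAAA, the CCAAT box, the CACCC box bound by KLF factors, and the letters GATA bound by GATA1, all searched on both strands. A match on the opposite strand appears as its complement read backwards, such as TATC for GATA. The windows are chr11:32276400-32276599 on the plus strand for Hba-x, chr11:32296292-32296491 on the plus strand for Hba-a2, and on the minus strand chr7:103853208-103853407 for Hbb-y, chr7:103827929-103828128 for Hbb-bs and chr7:103813924-103814123 for Hbb-bt.
Hba-x: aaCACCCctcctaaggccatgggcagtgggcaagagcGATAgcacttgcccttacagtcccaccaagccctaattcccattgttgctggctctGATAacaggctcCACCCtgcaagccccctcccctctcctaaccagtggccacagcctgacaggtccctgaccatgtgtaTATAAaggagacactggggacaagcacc
Hba-a2: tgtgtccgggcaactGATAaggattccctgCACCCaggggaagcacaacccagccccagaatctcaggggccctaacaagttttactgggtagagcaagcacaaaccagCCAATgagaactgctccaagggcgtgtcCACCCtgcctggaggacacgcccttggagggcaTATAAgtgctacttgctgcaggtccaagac
Hbb-y: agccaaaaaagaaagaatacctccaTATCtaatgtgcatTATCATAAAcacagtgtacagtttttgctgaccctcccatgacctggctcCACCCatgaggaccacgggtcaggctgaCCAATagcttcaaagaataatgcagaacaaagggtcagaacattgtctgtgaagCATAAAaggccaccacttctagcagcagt
Hbb-bs: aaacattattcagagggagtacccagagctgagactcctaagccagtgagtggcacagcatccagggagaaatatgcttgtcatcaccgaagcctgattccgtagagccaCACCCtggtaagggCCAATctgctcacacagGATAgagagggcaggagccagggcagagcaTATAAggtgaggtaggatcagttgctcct
Hbb-bt: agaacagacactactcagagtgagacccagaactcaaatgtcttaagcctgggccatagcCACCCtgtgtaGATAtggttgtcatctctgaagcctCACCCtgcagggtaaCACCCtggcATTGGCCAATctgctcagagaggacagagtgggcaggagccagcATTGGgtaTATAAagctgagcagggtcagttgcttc

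The Hba-a1 window is identical to that of Hba-a2 once shifted by 3 bases, and is not printed. A TATAA stood 24 to 30 bases before the start in Hba-x, Hba-a2, Hbb-bs and Hbb-bt. Hbb-y had CATAAA 24 to 29 bases before the start instead. It held another CATAAA farther out, which shares 1 base with a GATA on the opposite strand. CCAAT was present in every printed window except that of Hba-x, and CACCC and GATA in all 5. Such short matches are common. Over 32851 RefSeq promoter windows of the same length, 18.5% held the TATA box, 8.51% the variant with CATAAA, 29.3% the CCAAT box, 45.5% the CACCC box and 45.4% the GATA letters, and 12.9% held both the CCAAT and the CACCC box. Aligned without gaps, Hbb-bs and Hbb-bt were 59.3% identical in this window, while the remaining pairs with different genes, apart from Hba-a1 and Hba-a2, were 27.3% to 33.5% identical.

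The 7 transcripts ranged from 50.2 to 2806 TPM, a level scaled for transcript length and library size that allows genes to be compared. In order of mean level they ran Hbb-y, Hba-x, Hba-a1, Hba-a2, Hbb-bh1, Hbb-bt, Hbb-bs. Each neighbouring pair stood in this order in 8 of 8 libraries, except that Hba-a2 exceeded Hbb-bh1 in 7 of 8. Across libraries the ranges of neighbours overlapped for every pair but one, Hbb-bh1 (395 to 689 TPM) and Hbb-bt (87.8 to 195 TPM). The embryonic beta-like genes therefore made up nearly all beta-like RNA, with a range of 90.8% to 93.6% over the 8 libraries, whereas the embryonic Hba-x made up 40.4% to 47.5% of alpha-like RNA.

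**Figure D1:**
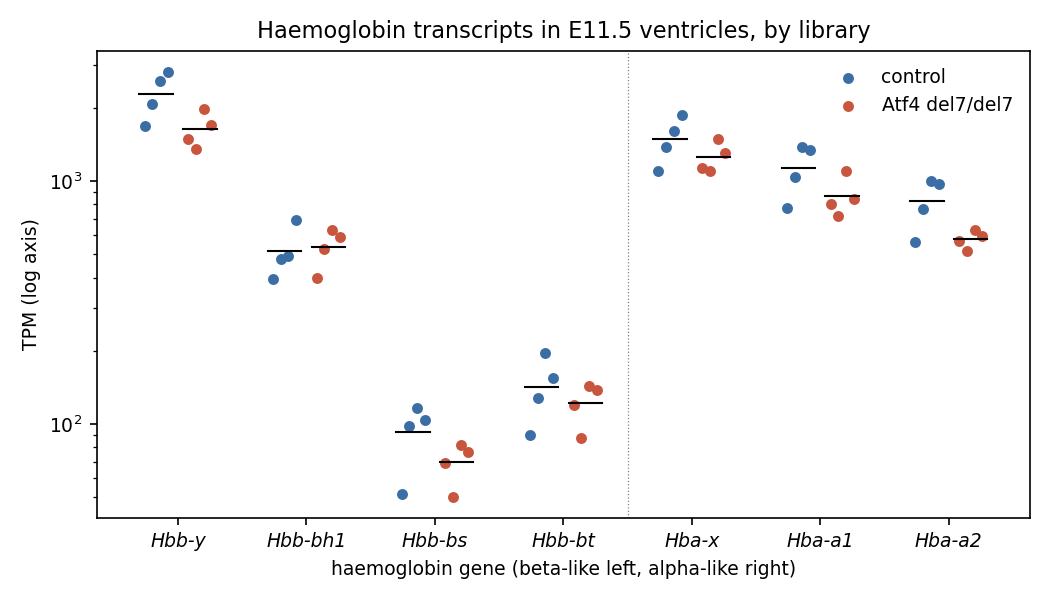
TPM of each haemoglobin gene (log axis) in the 4 control and 4 Atf4(del7/del7) libraries, beta-like genes on the left and alpha-like genes on the right; points are libraries and black lines are group means. The groups overlap for all 7 genes, with mutant means below control means for every gene but Hbb-bh1.

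No haemoglobin gene passed the test between genotypes. At the adjusted p threshold of 0.05, 0 of 7 were called in limma on log2(TPM + 1) with Benjamini-Hochberg adjustment over all genes, against 0.0386% of the 15545 genes tested. At an unadjusted p below 0.05 there were 2, both lower in the mutants, against 6.1% of all genes in either direction and 3.45% lower. The groups overlapped for all 7, so 0 of 7 separated the genotypes, against 3.68% of all genes. The estimate was below 0 for 6 genes and above 0 for 1. Their median log2 fold change was -0.36, beside -0.0033 over all genes tested. The genes were also variable between libraries of one genotype. Their residual SD ran from 0.271 to 0.429 on the log2 scale, with a median of 0.310, beside a median of 0.103 over all genes, and 10.6% of all genes varied more than the least variable of the 7.

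Hbb-y, the late embryonic beta chain, was the most abundant haemoglobin transcript. Its TPM in control replicates 1 to 4 was 1683, 2069, 2588 and 2806, and in mutant replicates 1 to 4 it was 1489, 1354, 1984 and 1704. All 4 mutants lay below the control mean of 2287 ± 507 (SD, n = 4), with a mean of 1633 ± 275, but mutants 3 and 4 lay above the lowest control. The log2 fold change was -0.47 (SE 0.166), with an unadjusted p of 0.0182 and an adjusted p of 0.783 (limma).

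Hbb-bh1, the early embryonic beta chain, was the one gene without a lower mean in the mutants. Its TPM was 395, 476, 488 and 689 in the controls and 399, 523, 625 and 587 in the mutants. The groups overlapped almost fully, with control 1 and mutant 1 the lowest of each and control 4 the highest of all. Means were 512 ± 125 and 533 ± 99.2 TPM (SD, n = 4). The log2 fold change of 0.07 (SE 0.177) had an adjusted p of 0.979 in limma and a 95% interval from -0.33 to 0.46. Its sign was not stable, being -0.05 without control 1 and -0.01 without mutant 3.

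The adult beta chains Hbb-bs and Hbb-bt were the least abundant. Hbb-bs was at 51.3, 97.9, 116 and 104 TPM in the controls and 68.8, 50.2, 81.9 and 76.6 TPM in the mutants. Hbb-bt was at 90.2, 128, 195 and 155 TPM in the controls and 119, 87.8, 144 and 138 TPM in the mutants. For both, control 1 sat among the mutants. The other 3 controls were above every mutant for Hbb-bs, while for Hbb-bt control 2 also lay within the mutant range. The log2 fold change was -0.36 (SE 0.243) for Hbb-bs and -0.19 (SE 0.227) for Hbb-bt, with adjusted p of 0.888 and 0.943 in limma. Single libraries moved both values. Hbb-bs was -0.62 without control 1, -0.23 without control 3 and -0.22 without mutant 2. Hbb-bt was -0.38 without control 1, -0.02 without control 3, -0.13 without control 4 and -0.04 without mutant 2. These genes differ at 1 of 444 coding bases and share 91.9% of all 100-base stretches of coding sequence, so how the authors assigned reads that fit both can move RNA from one to the other, and their separate values are uncertain. Summed before the fit, they gave a log2 fold change of -0.26 (SE 0.231).

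Among alpha-like genes, Hba-x, the embryonic zeta chain, was at 1101, 1376, 1606 and 1872 TPM in the controls and 1124, 1103, 1486 and 1298 TPM in the mutants. All 4 mutants were below the control mean of 1489 ± 329 TPM, yet each was above control 1. Its log2 fold change was -0.23 (SE 0.155), with an adjusted p of 0.889 (limma). It was -0.37 without control 1 and -0.11 without control 4.

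Hba-a1 and Hba-a2 encode the adult alpha chain and are used by primitive and definitive red cells alike. Hba-a1 was at 772, 1040, 1375 and 1337 TPM in the controls and 802, 718, 1100 and 840 TPM in the mutants. Hba-a2 was at 562, 764, 996 and 974 TPM in the controls and 565, 514, 629 and 595 TPM in the mutants. In both genes control 1 lay within the mutant range. The other 3 controls were above every mutant for Hba-a2, while for Hba-a1 control 2 was below mutant 3. The log2 fold change was -0.37 (SE 0.188) for Hba-a1, with an unadjusted p of 0.0807. For Hba-a2 it was -0.48 (SE 0.163), the lowest of the 7, with an unadjusted p of 0.0149 and an adjusted p of 0.780 in limma. The copies differ at 1 of 429 coding bases and share 85.2% of 100-base stretches, so the split between them is uncertain in the same way. Summed before the fit, they gave -0.41 (SE 0.176), with an adjusted p of 0.808 in limma. The embryonic genes share no 100-base stretch of coding sequence with any other haemoglobin gene compared within their cluster, and were 61.8% to 76.4% identical to those genes.

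Summed over the 7 genes, haemoglobin reached 4655, 5951, 7365 and 7936 TPM in the controls and 4567, 4348, 6050 and 5239 TPM in the mutants. The mutant mean of 5051 ± 766 was 0.780 times the control mean of 6477 ± 1474 (SD, n = 4), and the ranges overlapped, with control 1 at the mutant level. As a share of all TPM the difference was -0.151 percentage points and became -0.0983 without control 4. The mutant mean was 0.797 times the control mean for the embryonic genes, 0.737 times for definitive alpha and 0.818 times for definitive beta. Embryonic RNA was 4287 ± 946 TPM in controls and 3419 ± 531 TPM in mutants, definitive alpha RNA 1955 ± 486 and 1441 ± 210 TPM, and definitive beta RNA 234 ± 71.0 and 192 ± 39.0 TPM, with overlapping groups each time.

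The share of embryonic genes in haemoglobin RNA, a sign of developmental stage, lay between 63.6% and 68.5% in every library. It was 68.3%, 65.9%, 63.6% and 67.6% in the controls and 66.0%, 68.5%, 67.7% and 68.5% in the mutants. The means were 66.3% ± 2.11 and 67.7% ± 1.20 (SD, n = 4), a difference of 1.32 percentage points with overlapping groups. Control 3 was the lowest library, and without it the difference was 0.395 points. Among beta-like genes alone the embryonic share was 92.4% ± 1.26 in controls and 91.9% ± 0.949 in mutants. Among alpha-like genes Hba-x held 43.4% ± 2.18 and 46.5% ± 1.08, and the groups met only through control 1 at 45.2% and mutant 1 at 45.1%. The ratio of alpha-like to beta-like RNA was nearly constant, at 1.13 ± 0.0347 in controls and 1.15 ± 0.0456 in mutants, with all 8 libraries between 1.09 and 1.20.

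**Figure D2:**
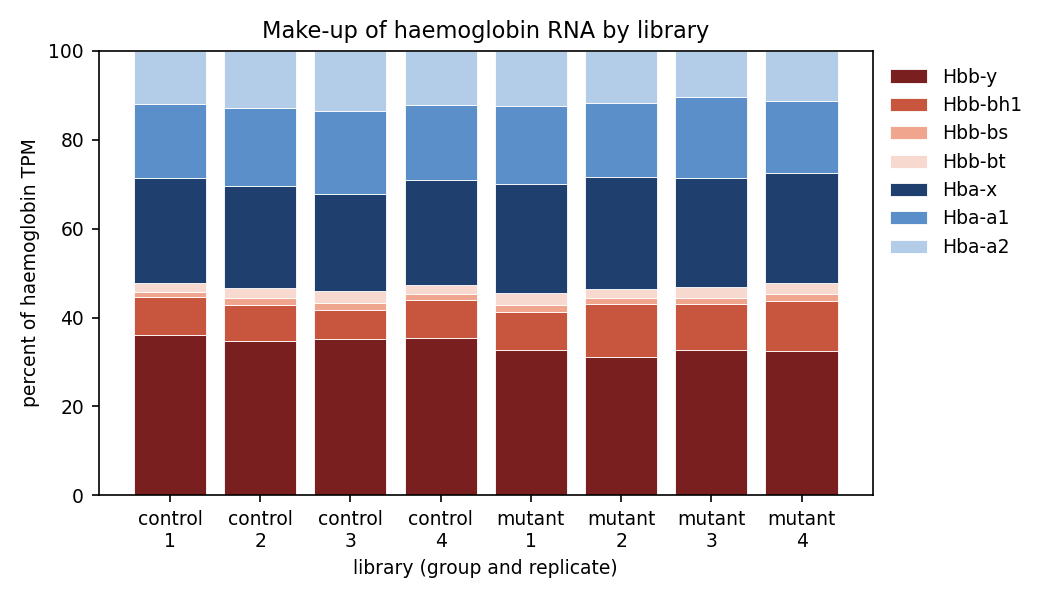
Percent of summed haemoglobin TPM held by each of the 7 genes in each library, stacked to 100; reds are beta-like and blues alpha-like genes. The Hbb-y block is smaller in all 4 mutant libraries (31.1% to 32.8%) than in all 4 control libraries (34.8% to 36.2%).

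Within the embryonic genes, the share of each gene separated the 8 libraries by genotype although their total share overlapped. Hbb-y held 36.2%, 34.8%, 35.1% and 35.4% of haemoglobin RNA in the controls and 32.6%, 31.1%, 32.8% and 32.5% in the mutants, so every mutant was below every control. Hba-x held 23.6%, 23.1%, 21.8% and 23.6% in the controls and 24.6%, 25.4%, 24.6% and 24.8% in the mutants. Hbb-bh1 held 8.50%, 8.002%, 6.63% and 8.68% in the controls and 8.73%, 12.0%, 10.3% and 11.2% in the mutants. For both of these every mutant was above every control, but for Hbb-bh1 mutant 1 cleared control 4 by only 0.0566 points. The shares of Hba-a1, Hba-a2, Hbb-bs and Hbb-bt overlapped between the groups. Shares of one total are tied to each other, so these are not 3 separate differences, and no test was run on them because they are scores over the genes themselves. No background rate was computed for such shares, so how often they separate without a difference between genotypes is not known.

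A ratio between genes of one library is not moved by a change common to both. Hbb-bh1 to Hbb-y was 0.235, 0.230, 0.189 and 0.245 in the controls and 0.268, 0.386, 0.315 and 0.345 in the mutants. The mean ratio was 0.225 ± 0.0249 in controls and 0.328 ± 0.0498 in mutants (SD, n = 4), 1.46 times as high. Hba-x to Hbb-y was 0.654, 0.665, 0.621 and 0.667 in the controls and 0.755, 0.815, 0.749 and 0.762 in the mutants, with means of 0.652 ± 0.0216 and 0.770 ± 0.0302. Both ratios were higher in all 4 mutants, and both have Hbb-y as the denominator.

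Of the 21 ratios between pairs of the 7 genes, 4 had groups that did not overlap. The remaining 2 were Hba-x to Hba-a2 (1.82 ± 0.156 in controls, 2.17 ± 0.153 in mutants) and Hba-a1 to Hba-a2. The latter was 1.37, 1.36, 1.38 and 1.37 in the controls and 1.42, 1.40, 1.75 and 1.41 in the mutants. Its mean difference of 0.122 dropped to 0.0374 without mutant 3, and it rests on the split between near-identical copies. Hba-x to Hba-a2 depends on that split too, and Hba-x to Hba-a1 overlapped between the groups. For background, the ratio of Hbb-y to each of 15519 other genes above 0 in all 8 libraries separated the groups for 3.9% of them. The same share was 0.696% for Hba-x, 0.264% for Hbb-bh1 and 0.863% for Hba-a1. No such rate was computed for Hba-a2, so the 2 ratios with Hba-a2 have a rate for only one of their genes. Each ratio with Hbb-y has 2 such rates, 3.9% and that of its other gene. They are over genes of all kinds, so they are not the rate for genes that move together. Hba-x and Hbb-y did so, with a Pearson's r of 0.946 between log2 levels. These differences were not tested.

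**Figure D3:**
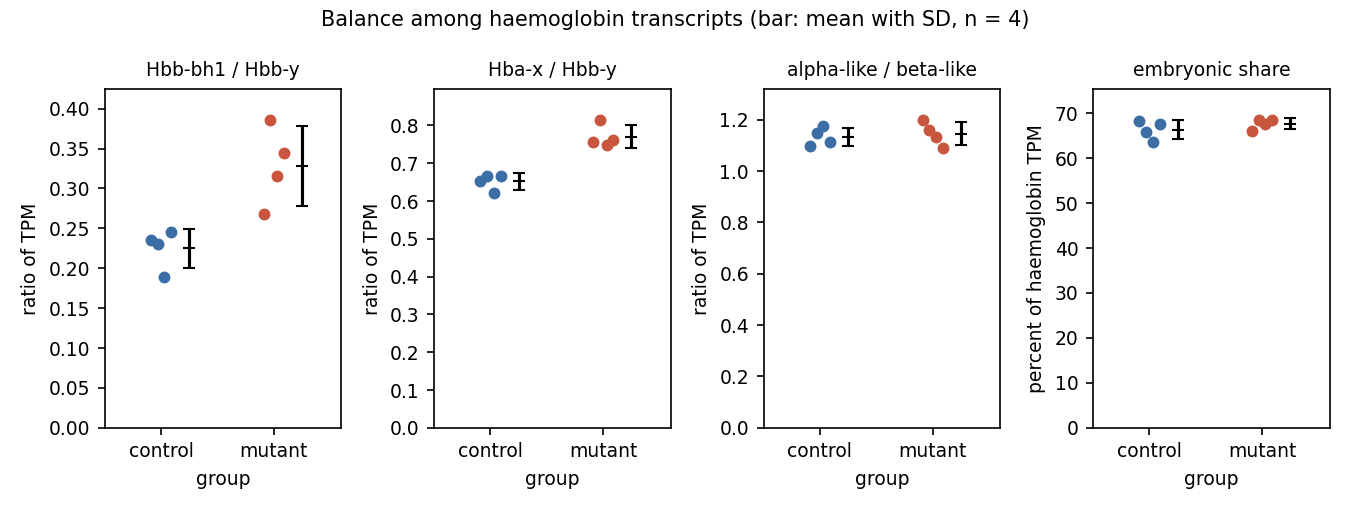
Hbb-bh1 to Hbb-y, Hba-x to Hbb-y and alpha-like to beta-like ratios of TPM, and the embryonic percent of haemoglobin TPM, in control and mutant libraries; points are libraries, bars the mean with SD (n = 4). The first 2 ratios do not overlap between groups (0.189 to 0.245 against 0.268 to 0.386, and 0.621 to 0.667 against 0.749 to 0.815), while the last 2 measures do.

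Across the 8 libraries 6 of the genes moved together. Pearson's r between log2 levels was 0.811 to 0.966 for pairs without Hbb-bh1, and 0.375 to 0.715 for pairs with it. These are descriptions over 8 libraries that differ in summed haemoglobin. The genes whose levels were most like summed haemoglobin, out of 11620 genes with a mean of at least 5 TPM, were Alas2 (r = 0.977), the first enzyme of haem synthesis in red cells, and Slc4a1 (r = 0.958), the anion exchanger of the red cell membrane. After them came LOC115487278, Gm12696, Lmo2, Arhgef15, TrnS1, LOC115486842, Ndufs5 and Zbtb4, with r from 0.933 down to 0.871. Lmo2 is a partner of the red cell factors TAL1 and GATA1. The embryonic share was most like Egr1 (r = 0.954), Impa1, Otulin, Zwilch and Epm2a (r = 0.933), none of them red cell genes in the lists used.

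Haemoglobin was also divided by Alas2 and Slc4a1. Both are the genes most like summed haemoglobin in these libraries, so near-equal ratios of the total follow from that choice and show nothing about the genotypes. Per TPM of Slc4a1 it was 265 ± 26.6 in controls and 269 ± 7.99 in mutants (SD, n = 4), and per TPM of Alas2 it was 410 ± 17.7 and 414 ± 24.9, with overlapping groups. Slc4a1 was at 17.5, 24.5, 24.4 and 32.0 TPM in the controls and 17.5, 15.8, 22.9 and 18.9 TPM in the mutants, and control 4 was the highest and mutant 2 the lowest library for haemoglobin and for Slc4a1 alike. Hbb-y per TPM of Alas2 was 145 ± 5.83 and 133 ± 6.42, overlapping. Hbb-bh1 per TPM of Slc4a1 was 20.9 ± 1.48 in controls and 28.6 ± 4.52 in mutants, higher in all mutants by a gap of 0.164, whereas per TPM of Alas2 it was 32.6 ± 3.87 and 44.0 ± 8.19 and overlapped. For each of the other haemoglobin genes the groups overlapped with either denominator. For background, the ratio of Hbb-bh1 to another gene separated the groups for 0.264% of 15519 genes. No such rate was computed for Slc4a1 or Alas2, which were picked for their likeness to haemoglobin in these libraries. The difference was not tested.

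**Figure D4:**
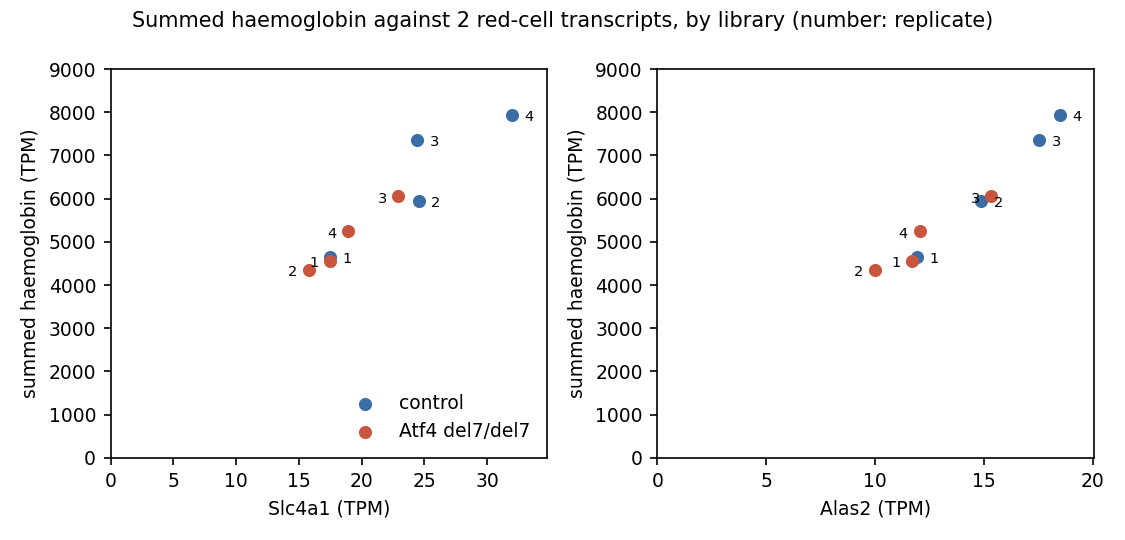
Summed haemoglobin TPM against Slc4a1 TPM (left) and Alas2 TPM (right), each point a library labelled with its replicate number. Libraries of both genotypes high on one axis are high on the other, with controls 3 and 4 at the top and mutant 2 at the bottom (4348 TPM).

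Genes of the red cell programme outside haemoglobin gave no call either. Of 20 genes of haem synthesis and handling, all 20 were tested, 0 passed in either direction, 14 estimates were below 0 and 6 above, and the median log2 fold change was -0.05. At an unadjusted p below 0.05 there was 1, the transferrin receptor Tfrc, which brings iron into the cell, with a log2 fold change of -0.16 (adjusted p 0.801 in limma). Over all genes 3.45% were lower at that threshold, so 1 of 20 is near the background. Alas2 was at 11.9, 14.9, 17.5 and 18.5 TPM in the controls and 11.7, 9.98, 15.3 and 12.0 TPM in the mutants, a log2 fold change of -0.33 with an unadjusted p of 0.0532. Ppox, a late enzyme of haem synthesis, had -0.11, Slc48a1, a haem transporter, -0.12, and Eif2ak1, the haem-sensing kinase of eIF2alpha that acts upstream of ATF4, -0.02.

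Of 15 erythroid transcription factors and regulators of globin switching, 14 were tested and 0 passed, with 5 estimates above 0, 9 below and a median of -0.02. At an unadjusted p below 0.05, 2 were higher in the mutants, against 2.65% of all genes. Zfpm1, the FOG1 partner of GATA1, was at 17.3, 20.3, 16.2 and 12.4 TPM in the controls and 30.5, 14.4, 42.0 and 26.1 TPM in the mutants, with a log2 fold change of 0.66 and an unadjusted p of 0.0372. Mutant 2 lay among the controls. Sox6, a repressor of Hbb-y, stood at 0.50 on the same scale (unadjusted p 0.0407), with 4.54, 6.56, 2.43 and 4.20 TPM in the controls and 6.53, 5.37, 6.14 and 7.68 TPM in the mutants, so control 2 overlapped the mutants. Without control 3 its value was 0.29, with an unadjusted p of 0.0857 in limma. Klf1, an activator of adult beta-globin, had 0.33, Bcl11a, a silencer of embryonic and fetal globins, -0.14, and Nfe2l2, a factor of the oxidative stress response, 0.11. Myb was under the filter, at 0.553 to 1.26 TPM. Sox6, Bcl11a, Zfpm1 and Nfe2l2 are also transcribed outside blood, so in this tissue their levels need not come from red cells.

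Of 22 genes of the red cell membrane, cytoskeleton and enzymes, 21 were found, 17 were tested and 0 passed. There were 11 estimates below 0 and 6 above, with a median of -0.06. The blood group protein gene Kel (-0.33, unadjusted p 0.0239) and Epb42 (-0.31, unadjusted p 0.0403), for the membrane protein 4.2, were lower at the unadjusted threshold, 2 of 17 against 3.45% of all genes. Slc4a1 (-0.35) and Rhd (-0.24), for membrane proteins of the red cell surface, were not. Of 11 other globin genes, 8 were found and 2 were tested. Mb, the myoglobin of muscle, was at 154 ± 15.1 TPM in controls and 151 ± 11.5 TPM in mutants, a log2 fold change of -0.03. Hbq1b, a theta globin gene of the alpha cluster, was at 1.12 ± 0.309 and 1.46 ± 0.455 TPM with 0.21, and Cygb was under the filter at 0.348 to 0.746 TPM.

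**Figure D5:**
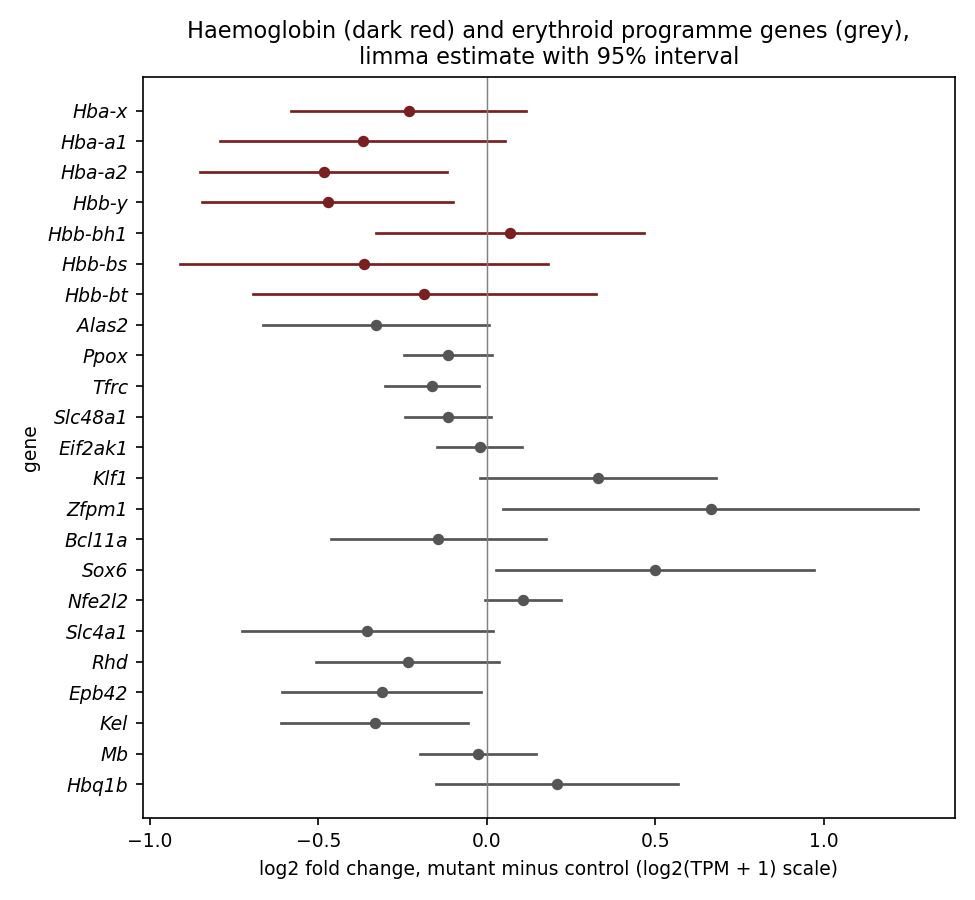
Log2 fold change, mutant minus control, with its 95% interval in limma for the 7 haemoglobin genes (dark red) and the named genes of the red cell and other globin lists (grey). Among the haemoglobin genes, Hbb-y and Hba-a2 have intervals below 0, at -0.85 to -0.10 and -0.85 to -0.12. Among the grey genes, Tfrc, Kel and Epb42 have intervals below 0, and Zfpm1 and Sox6 above 0. No adjusted p of the plotted genes passed 0.05.

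The labelled tissue was checked against markers. Myl2, the ventricular myosin light chain, was at 11501 ± 542 TPM in controls and 11101 ± 370 TPM in mutants, and 7 ventricular markers summed to 34274 to 37363 TPM. The 5 atrial markers summed to 9697 to 11145 TPM in controls and 10530 to 11318 TPM in mutants. Nearly all of that sum was Myl4, Myl7 and Nppa, with means of 4188, 3479 and 3060 TPM over the 8 libraries. Nr2f2 had a mean of 10.7 TPM, so the sum need not follow the atrial share of the tissue. Myl7, a myosin light chain of the early heart and later of the atria, was at 3312 ± 143 TPM in controls and 3646 ± 180 TPM in mutants, above the control mean in all 4 (unadjusted p 0.0186, adjusted p 0.783, limma), and Sln was under 1 TPM in all libraries. Atf4 itself was higher in the mutants, at 112 ± 8.07 and 166 ± 15.1 TPM (adjusted p 0.0430, limma), which is RNA and does not check the loss of protein. Of 7 hepatocyte markers, a check for the fetal liver, 6 had a mean under 1 TPM, their sum was 2.196 to 3.77 TPM in controls and 2.74 to 4.27 TPM in mutants, and Alb was at 0 in 7 of 8 libraries. Macrophage markers gave lower estimates in the mutants. Of 7 macrophage markers 6 were tested, and all 6 estimates were below 0, with a median of -0.56. 4 of them had an unadjusted p below 0.05, against 3.45% of all genes lower, and 0 passed (lowest adjusted p 0.573, limma). The groups of 3, Cx3cr1, C1qb and Mrc1, did not overlap, against 3.68% of all genes. The summed level was 83.8, 79.5, 77.6 and 63.8 TPM in controls 1 to 4, falling in the order in which summed haemoglobin rose. In mutants 1 to 4 it was 63.8, 53.4, 55.8 and 53.6 TPM. Most of that sum was Lyz2, at 62.8 ± 5.09 TPM in controls and 49.6 ± 4.58 TPM in mutants, with overlapping groups. The other macrophage markers were low, each with a mean under 5 TPM, and Adgre1 was under 1 TPM in all libraries. Of 6 megakaryocyte and platelet markers 4 estimates were above 0 and 2 below, and the sum was 22.9 to 57.0 TPM in controls and 30.8 to 41.9 TPM in mutants. Whether macrophage content or the atrial share of the tissue has a part in the haemoglobin levels was not tested.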

How the data were processed

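The values are TPM that the authors deposited in 1 table, with 1 column per library. The submitters' processing notes name FastQC, Trim Galore 0.6.7, HISAT2 2.2.1, StringTie 2.2.1 and featureCounts, and the builds GRCm38 and mm10. Strand setting and treatment of reads that fit several genes are not given in the sources used here. Per the labels, the design text describes TRIzol and a stranded poly(A) kit, while each sample's protocol describes cortical neurons, a column kit and ribosomal RNA depletion. Groups came from titles, and all samples carry batch label 1. TPM summed to 923473 to 949762 per library and keeps no read depth, so no counting interval is given and precision rests on the 4 libraries of a group. The design text calls these biological replicates.

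log2(TPM + 1) was fitted in limma 3.58.1 (R 4.3.3) without covariates, with empirical Bayes variances that follow mean expression, for the 15545 genes that reached 1 TPM in 4 or more of the 8 libraries. p-values are two-sided, with Benjamini-Hochberg adjustment over all of them. Fold changes understate those of low genes. Sums and ratios used TPM (Python 3.11.15, pandas 2.3.3). Coordinates count from 1, and 49590 of 49593 features matched by symbol were identical to RefSeq GRCm38.p6. Coding sequences are from GENCODE M21. In simulated data of 15545 genes the fit recovered 30.5%, 63.8% and 93.5% of genes changed by 0.3, 0.5 and 1 on the log2 scale. The changed genes were drawn from all genes tested, whose median residual SD was 0.103. The haemoglobin genes varied more, with a residual SD of 0.271 to 0.429, so these rates do not apply to them.

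The genes and lists were chosen with earlier results of these data known. Named were the 7 genes, up to 4 genes of each red cell list with the smallest p and a mean of at least 1 TPM, 9 further red cell genes, regulators and globins where detected (1 more gene of the rule is not reported here), Atf4, and the 10 and 5 genes most like total haemoglobin and the embryonic share. Marker genes were named after their values were seen. Alternatives were other pseudocounts, filters, scalings and variances, the replicate number as a block, red cell covariates, summed copies and each library left out.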

Additional observations from a re-analysis of the deposited data

Results flagged for a closer look

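In 132 groups of 4 libraries, 6 held a library that stood apart from the other 3 by Dixon's criterion, where chance alone gives about 6.6. The ratio of Hba-a1 to Hba-a2 was 1.75 in mutant 3 and 1.40 to 1.42 in the other mutants. The Hbb-y share of haemoglobin was 31.1% in mutant 2 and 32.5% to 32.8% in the other mutants. Control 3 was high per TPM of Slc4a1 for 3 genes: Hba-a1 at 56.3 against 41.8 to 44.2, Hba-a2 at 40.8 against 30.4 to 32.2, and Hbb-bt at 7.98 against 4.84 to 5.20. These 3 share the same denominator. Hba-x per TPM of Alas2 was 101 in control 4 and 91.6 to 92.5 in the other controls.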

How the results depend on the processing

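None of the 7 haemoglobin genes passed the adjusted threshold under any alternative tried. The lowest adjusted p was 0.247, for Hba-a2 without control 1 (log2 fold change -0.66, unadjusted p 0.000143, limma). Control 1 had the lowest summed haemoglobin of the controls. Without it the unadjusted p in limma was 0.00223 for Hbb-y, 0.00292 for Hbb-bs, 0.00578 for Hba-a1 and 0.0185 for Hba-x. Without control 3 or control 4 the estimates of these genes moved toward 0 instead. Over all genes, 6 calls became 0 without a filter, 0 without the variance trend and 0 with the replicate number as a block, and 0 to 3 with one library left out (0 without control 2, 3 or 4). Whether the replicate numbers pair the libraries is not known. Over all genes tested, deviations of same-numbered libraries correlated at -0.082 to 0.035, and those of other pairs at -0.054 to 0.057. The block lowered the SE of all 7 haemoglobin genes, for Hbb-y from 0.166 to 0.0877. With the block Hbb-y had an unadjusted p of 0.00139 and an adjusted p of 0.637 (limma). The unadjusted p with the block was 0.00549 for Hba-a2, 0.0153 for Hba-a1 and 0.0368 for Hba-x (limma). It was 0.113 for Hbb-bs, 0.251 for Hbb-bt and 0.467 for Hbb-bh1 (limma). Some log2 fold changes turned sign, none with a call. With the mean of 8 red cell restricted genes as covariate, chosen after the data were seen, Hbb-bt was 0.179, Hba-x 0.0829 and Hbb-bs 0.0384, while Hbb-y was -0.139 (unadjusted p 0.103), Hba-a2 -0.205 (unadjusted p 0.142), Hba-a1 -0.00737 and Hbb-bh1 0.374 (unadjusted p 0.0229, adjusted p 0.902, limma). With the mean of the haem and membrane lists as covariate Hbb-bt was 0.0814. With one library left out, Hbb-bh1 ran from -0.0462 to 0.220, Mb from -0.0919 to 0.0229 and Eif2ak1 from -0.0711 to 0.00917. The embryonic share differed by -0.462 points among beta-like and 3.12 points among alpha-like genes. The cause was not tested. Leaving out one library gave 0.395 to 1.97 points for the embryonic share, -0.217 to -0.0983 points for the haemoglobin share of TPM, 0.0843 to 0.124 for Hbb-bh1 to Hbb-y and 0.104 to 0.126 for Hba-x to Hbb-y. TPM holds no depth, so what depth limits cannot be stated.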
